A study of Solanum lycopersicum x Solanum pennellii and Solanum lycopersicum with 7 samples.

Results

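Heterozygous single-nucleotide variants (SNVs) on chromosome 8 were described in a leaf RNA library of M82, the cultivated tomato into which the introgression lines of the study were bred. A record was taken as a heterozygous SNV where it lay on chromosome 8, was not an insertion or deletion, had a variant quality of at least 30 (a Phred score of the caller, higher where an error is less likely) and a depth of at least 10 reads, and had a genotype other than 1/1, the code for the alternate base on both chromosome copies. This left 492 SNVs, of 4003 records on chromosome 8 and 48455 in the library, and of 3039 heterozygous SNVs that the same rule gave over all chromosomes. All 492 had the genotype 0/1, which stands for 1 reference and 1 alternate base. The study held 1 library of M82, labelled replicate 2 and the control line, 3 libraries of IL2-6, labelled as having enhanced biomass production, and 3 of IL3-2. Both introgression lines are labelled as Solanum lycopersicum x Solanum pennellii, and all plants were field-grown. The labels do not say whether the M82 library came from 1 plant or from several. Per the series description, the M82 variants served as a control on the genotypes of the introgression lines, whose own variants were not analysed here.

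Cultivated tomato mostly pollinates itself, so a line kept by selfing is usually homozygous at nearly every position. The alternate base is the one that differs from the reference assembly, here SL2.50. In RNA, the share of reads with the alternate base reflects both how many chromosome copies carry it and how strongly each copy is transcribed, and a variant is seen only where a transcript is present. Reads of similar gene copies that are placed at 1 position also give mixed bases there. Which of these sources applied to the SNVs below was not tested. The SNVs were chosen by genotype, quality and depth, and there is 1 library with no replicate. Their counts and read shares are therefore descriptions without a test. Intervals are exact Clopper-Pearson 95% intervals for counting error only. They are too narrow for groups of SNVs, because SNVs of 1 transcript share reads.

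Most of the SNVs lay in a single stretch near the end of the chromosome, and there the alternate base was the minor one. A tract was defined as at least 10 SNVs with no more than 500 kb between neighbours. The largest tract ran from C54503970T to G64593767A, where each name gives the reference base, the position on chromosome 8 of SL2.50 counted from 1, and the alternate base. It held 380 of the 492 SNVs (77.2%, interval 73.3% to 80.9%) in 10.1 Mb, or 37.7 per Mb. With a quality minimum of 100 the largest tract held 33 SNVs, 18.2% of those left. The median alternate share over these 380 SNVs was 21.6%, with quartiles of 16.4% and 30%. Over the 112 SNVs elsewhere on chromosome 8 it was 43.8%, with quartiles of 27.2% and 64.1%, and over the 2547 heterozygous SNVs off chromosome 8, which include 72 on unplaced sequence, it was 35.7%, with quartiles of 25% and 57.1%.

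The deepest SNVs of the tract have the narrowest intervals, which hold for their own positions only. They lay between 60811474 and 60811850 and between 61620397 and 61623211, so they do not stand for the whole tract. C60811850T had 165 alternate among 938 reads (17.6%, interval 15.2% to 20.2%). G60811528A, 322 bases before it, had 160 among 801 (20%, 17.3% to 22.9%), and A60811611T had 176 among 666 (26.4%, 23.1% to 30%). These 3 neighbours all had a clear minority of alternate reads, although the intervals of C60811850T and A60811611T did not overlap. Some 809 kb after C60811850T, A61621270G had 191 among 802 reads (23.8%, 20.9% to 26.9%), while C61620397T in the same cluster had 303 among 657 (46.1%, 42.3% to 50%). C61620397T was the only one of these 5 near an even share, and its reference reads were mostly on 1 strand, with 336 forward and 18 reverse, against 247 forward and 56 reverse for its alternate reads.

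The other 5 of the 10 deepest SNVs sat together near the start of the chromosome, outside the large tract, with higher shares. G1789024A had 486 alternate among 1085 reads (44.8%, 41.8% to 47.8%) and A1788209G had 384 among 770 (49.9%, 46.3% to 53.5%). A1788170G and C1788054T had 42.2% (38.6% to 45.8%) and 38.4% (34.6% to 42.4%). T1789052C was the lowest of them, with 257 among 957 reads (26.9%, 24.1% to 29.8%), although it lies 28 bases from G1789024A. The interval of T1789052C overlapped none of the others, while some of the others overlapped each other, such as those of G1789024A and A1788209G.

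**Figure D1:**
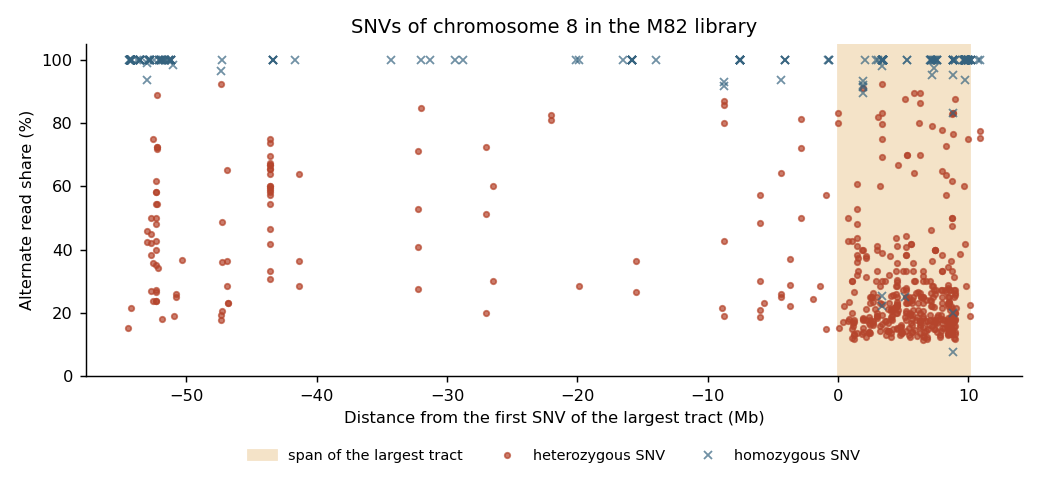
Alternate read share of each SNV of chromosome 8 in the M82 library, by distance from the first SNV of the largest tract in Mb (negative before it). Points are the 492 heterozygous SNVs, crosses the 215 homozygous ones, and the shaded span is the largest tract, in which the median share of heterozygous SNVs was 21.6%.

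Chromosome 8 stood first among the 12 numbered chromosomes in heterozygous SNVs. It held 492, against 148 on chromosome 10 to 376 on chromosome 1. To allow for the number of transcripts in which a variant can be seen, counts were divided by the expressed genes of each chromosome, taken as genes with at least 1 CPM (count per 1000000) in at least 3 of the 6 libraries of IL2-6 and IL3-2. Chromosome 8 had 35.5 heterozygous SNVs per 100 of its 1384 expressed genes, against 10.9 to 16.2 on the 11 others. The 112 SNVs outside the large tract alone came to 8.09 per 100 expressed genes of the whole chromosome. Those genes include the ones within the tract, so 8.09 is not comparable with the values of the other chromosomes. Homozygous SNVs came to 15.5 per 100 expressed genes on chromosome 8 and 16.1 to 128.6 on the others. Chromosome 8 was thus lowest, but close to chromosomes 7 (16.1) and 6 (16.5). The heterozygous share of all SNVs past the same minimums was 69.6% on chromosome 8 (492 of 707, interval 66.1% to 73.0%), against 10.8% on chromosome 5 to 47.2% on chromosome 6.

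The median alternate share was also lowest on chromosome 8, at 24.3%, against 33.1% to 40% on the other chromosomes. SNVs with a share under 35% made up 70.1% of those on chromosome 8 and 40.8% to 55.5% of those on each other chromosome. The lowest median held at a quality minimum of 10, with 19.4% against 25% to 30%, but not at 100. With a minimum of 100 in place of 30, chromosome 8 kept 181 heterozygous SNVs and the highest density, 13.1 per 100 expressed genes against 5.55 to 9.38. Its median share was then 45.9%, inside the 44.6% to 58.6% of the others, whose medians were also higher than at 30. The span of the large tract then held 108 of the 181 (59.7%), with a median share of 38.5%, but no longer formed 1 tract.

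**Figure D2:**
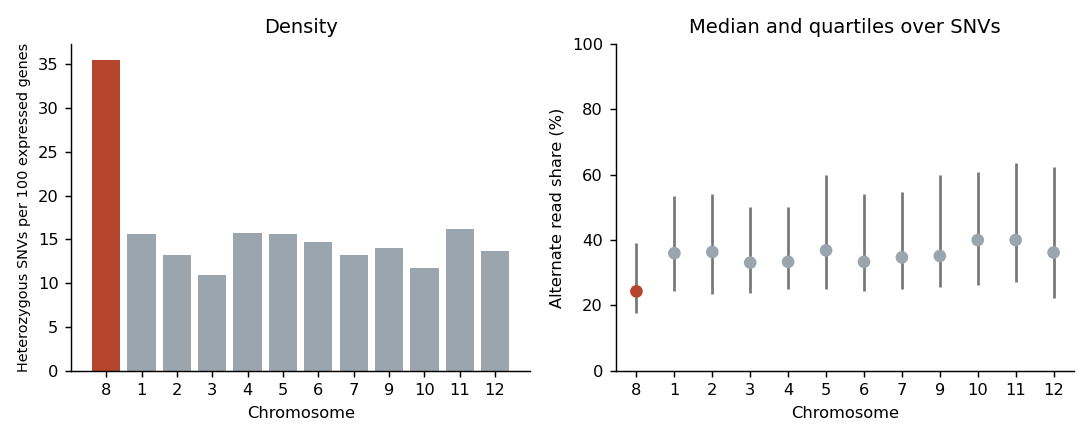
Heterozygous SNVs per 100 expressed genes (left) and the median alternate read share with quartiles over SNVs (right), with chromosome 8 first and the other chromosomes in order. Chromosome 8 had 35.5 SNVs per 100 expressed genes and a median share of 24.3%.

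Within the large tract the SNVs were densest between 55000001 and 64000000. The 9 bins of 1 Mb there held 27 to 59 heterozygous SNVs each, 369 in all, against a median of 2 and a 95th percentile of 17.9 over the 543 bins off chromosome 8 that held an SNV. All 9 were among the 20 richest bins of the library. The richest, from 63000001 to 64000000, had 59, and the richest bin off chromosome 8 had 54. Bin counts were not divided by expressed genes, so bins with few transcripts can show few SNVs. The median alternate share was similar along the stretch, from 18.2% to 25% in the 9 bins, and the median depth ran from 20 to 36 reads. Neighbouring SNVs of the tract were 2595 bases apart at the median. Of the 379 gaps between them, 32 were over 100 kb, and the widest was 349 kb.

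At the far border, the dense run of heterozygous SNVs ended at 63569661, and a run of homozygous SNVs started at 64115003. The only SNV past the minimums between them was heterozygous, at 63845832, so the border is not placed more finely. The next heterozygous SNV was at 64194956. The bin from 64000001 to 65000000 held 6 heterozygous and 43 homozygous SNVs, while the bin before it held 59 heterozygous and 12 homozygous. G64593767A, the last SNV of the tract, had 17 alternate among 76 reads (22.4%, 13.6% to 33.4%). At the near border, the bin from 54000001 to 55000000 held 5 heterozygous SNVs and the next held 28, with no homozygous SNV in either. C54503970T, the first SNV of the tract, had 10 alternate among 12 reads (83.3%, 51.6% to 97.9%), so the reads at the first SNV mostly held the alternate base and those at the last mostly the reference base.

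The same tract rule gave 61 tracts on the 11 other numbered chromosomes. The longest and richest of them, on chromosome 1, held 154 SNVs in 8.88 Mb, or 17.3 per Mb, with a median alternate share of 38.9%. The 22 with at least 30 SNVs had median shares of 25.9% to 63.9% and 7.75 to 52.4 SNVs per Mb. Density in the chromosome 8 tract was thus inside the range of the other tracts, while its number of SNVs and its length were above all 61 and its median share was below these 22.

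The remaining 3 tracts of chromosome 8 were small. The first ran from T1496909A to G2601041A, with 30 SNVs in 1104 kb, a median share of 43.8% and a median depth of 21 reads. T1496909A had 36 alternate among 85 reads (42.4%), and G2601041A had 4 among 22 (18.2%). The second ran from T7145152G to A7713267T, with 11 SNVs in 568 kb and a median share of 28.6%. T7145152G had 12 alternate among 13 reads (92.3%, interval 64% to 99.8%) with a genotype quality of 5, and A7713267T had 3 among 13 (23.1%, 5.04% to 53.8%). The third held 20 SNVs within 2370 bases, from T10889468C to G10891837C. Its median share was 60%, with quartiles of 56.5% and 66.7%, the highest of the 4 tracts. Its deepest SNV, A10891362G, had 40 alternate among 60 reads (66.7%, 53.3% to 78.3%), and there was no homozygous SNV between its ends. The other 51 SNVs of chromosome 8 lay in no tract and had a median share of 36.4%.

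Alternate shares were also counted in classes of below 35%, 35% to 65% and above 65%. In the tract, 305 of the 380 SNVs (80.3%, interval 75.9% to 84.1%) had an alternate share under 35%, 48 lay between 35% and 65%, and 27 lay above. Of the 112 other SNVs of chromosome 8, 40 (35.7%) were under 35%, 45 between and 27 above. Off chromosome 8, 1238 of 2547 (48.6%) were under 35%, 833 between and 476 above. Per SNV, 261 of the 492 members (53.0%) had an interval wholly below 50%, beside 36.5% of all 3039 heterozygous SNVs, and 32 (6.50%) had one wholly above 50%, beside 12.4% of the 3039. In the tract these were 231 of 380 (60.8%) below and 13 (3.42%) above, and off chromosome 8 they were 33.3% and 13.5% of 2547. The genotype call used the same reads, so nothing further is read from these shares.

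**Figure D3:**
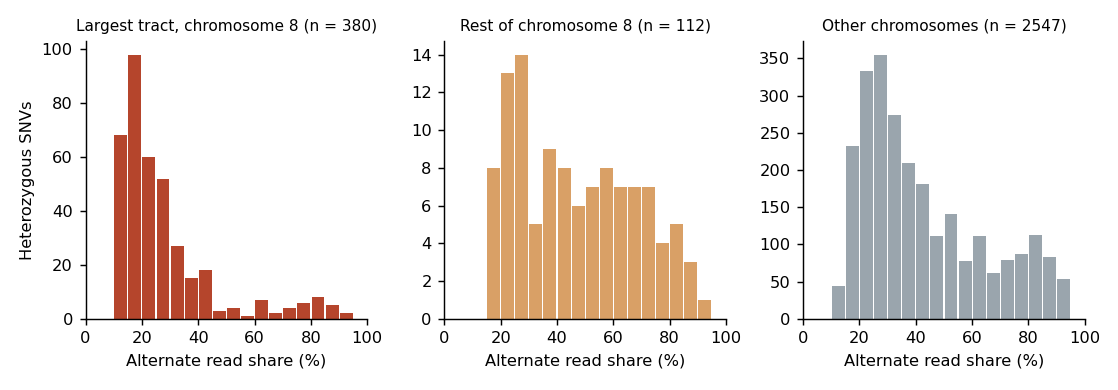
Number of heterozygous SNVs by alternate read share, in steps of 5%, for the largest tract of chromosome 8 (380), the rest of chromosome 8 (112) and the other chromosomes with unplaced sequence (2547), each on its own vertical scale. In the tract, 80.3% of the SNVs lay under 35%.

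The 27 tract SNVs above 65% lay in 21 separate places and were mostly shallow, with a median depth of 14 reads. Only 3 of them had at least 50 reads. T56387851G had 72 alternate among 79 reads (91.1%, interval 82.6% to 96.4%), A63283775G had 67 among 81 (82.7%, 72.7% to 90.2%) and C57899064A had 39 among 49 (79.6%, 65.7% to 89.8%). At these positions the reference base was the minor one. The caller's genotype quality, a Phred score for the 0/1 call, was 99 for A63283775G but 4 for T56387851G and 6 for C57899064A, so those 2 calls were barely separated from homozygous calls. T56387851G also lay between T56387824G and G56387875A, both listed as homozygous at alternate shares of 93.4% and 92.1%. The lowest shares among SNVs of at least 50 reads were also in the tract. G61045762A had 9 alternate among 78 reads (11.5%, 5.41% to 20.8%), G55734661A had 9 among 77 (11.7%, 5.49% to 21.0%) and A61334740G had 8 among 68 (11.8%, 5.22% to 21.9%). Their qualities were 33, 30 and 31, just above the minimum of 30.

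The lowest shares listed depended on depth. In the tract, the median share was 28.6% at 10 to 19 reads (119 SNVs), 19.7% at 20 to 49 (152), 15.5% at 50 to 99 (94) and 17.6% at 100 or more (15). The lowest share in these classes was 15.8%, 12.2%, 11.5% and 12.5%. Off chromosome 8 the medians were 38.5%, 32.4%, 32.8% and 37.1% in the same classes, with lowest shares of 16.7%, 12.8%, 12.1% and 13.4%. The deeper SNVs of the tract thus sat close to the lowest share that was listed, and some lower shares were listed under the quality minimum, where 54 records of at least 50 reads in the span had a median share of 11.7% and a lowest share of 10%.

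Records under the quality minimum were also dense in the span of the tract, with low shares. In the span of the tract, 439 of 819 SNV records with a genotype other than 1/1 and at least 10 reads had a quality under 30 (53.6%, interval 50.1% to 57.1%), with a median share of 15.2%. On the rest of chromosome 8 these were 87 of 199 (43.7%, median share 16.7%), and off chromosome 8 they were 2428 of 4975 (48.8%, median share 17.6%). With all qualities kept, records of at least 50 reads had a median share of 13.9% in the span (163 records), 42.3% on the rest of chromosome 8 (28) and 30.9% off chromosome 8 (754). Just inside the minimum, at a quality of 30 to under 35, 42 members had a median share of 16.5%, and 36 of them lay in the span. Just outside it, at 25 to under 30, were 50 records with a median share of 16.7%, 43 of them in the span. At the depth minimum, 42 members of 10 to 11 reads had a median share of 36.4%, and 60 records of 8 to 9 reads had 37.5%.

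**Figure D4:**
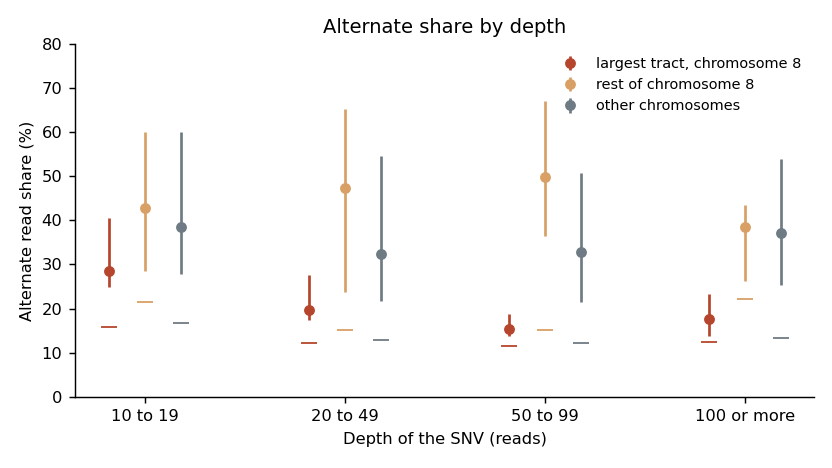
Median alternate read share of heterozygous SNVs with quartiles (points and bars) and the lowest share listed (short lines), by depth in reads, for the largest tract of chromosome 8, the rest of chromosome 8 and the other chromosomes. At 50 to 99 reads the medians were 15.5%, 49.9% and 32.8%.

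Within the tract, SNVs close to each other had more similar shares than SNVs further apart. A cluster was defined as at least 3 SNVs with no more than 2000 bases between neighbours, about the scale of a transcript, since no annotation of the build was used to place SNVs in genes. The 492 SNVs fell into 238 separate places at this distance, of which 48 were clusters, and the 380 of the tract fell into 198 places with 36 clusters. In 162 of the 198 places the median share was under 35%, and the median over the places was 21.1%, so that the share was as low with each place counted once. Among the 13 tract clusters with a median depth of at least 50 reads, the cluster medians ran from 12.6% to 34.3%.

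The tract cluster with the most SNVs lay between 63270949 and 63278283. Its 15 SNVs had a median share of 14.3% and a range of 13.2% to 21.7%, at a median depth of 65 reads. A63277915G, its deepest SNV, had 17 alternate among 118 reads (14.4%, interval 8.62% to 22.1%). About 5.49 kb further on, 5 SNVs between 63283775 and 63285619 had shares of 47.6% to 82.7%, with a median of 50%. Their listed mapping quality was 44 to 48, below the 50 listed for each of the 15, the highest in the file. The shares of these neighbouring clusters did not overlap. The cluster of 14 SNVs from 59054283 to 59057809 had a median of 23.1% (14.9% to 41.3%) at a median depth of 22.5 reads, and its deepest SNV, T59057809C, had 7 among 47 reads (14.9%). The 10 SNVs from 62957930 to 62958663 had a median of 16.8% (13.5% to 28.8%), and A62958062G there had 22 among 119 reads (18.5%, 12% to 26.6%).

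A few tract clusters departed from this level. The 3 SNVs from 60827788 to 60827877 had shares of 70% to 89.5%, with a median of 86.2%, at depths of 11 to 29 reads. They lay 4.78 kb after a cluster of 4 SNVs with a median of 16.8%. In all, 31 of the 36 tract clusters had a median under 35%, 4 lay between 35% and 65%, and 1 lay above. Of the 12 clusters outside the tract, 2 were under 35%, 8 between and 2 above. The largest of these outside were the 20 SNVs of the third tract and 13 SNVs from 2161210 to 2164440, with a median of 42.9% at a median depth of 14 reads, where T2163226G had 13 among 27 reads (48.1%, 28.7% to 68.1%).

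**Figure D5:**
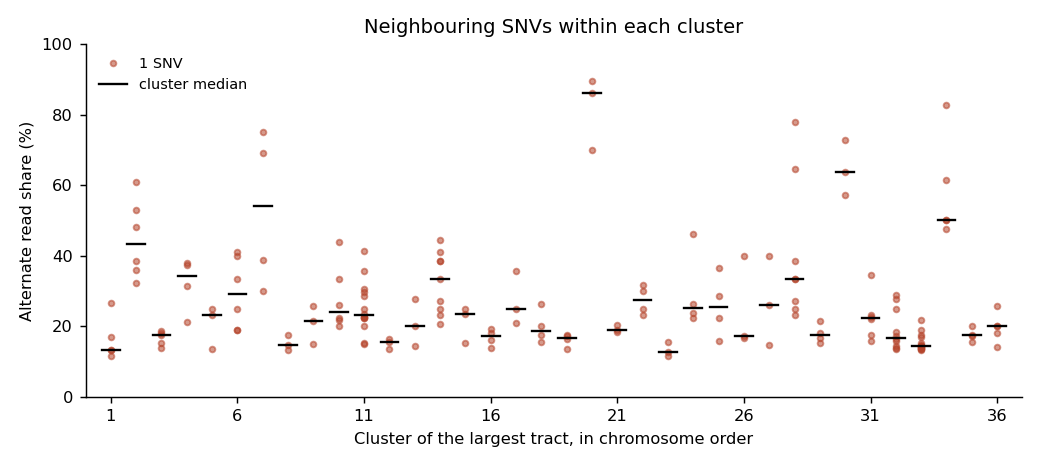
Alternate read share of each SNV (points) and the cluster median (lines) in the 36 clusters of the largest tract, in chromosome order and evenly spaced. In 31 clusters the median lay under 35%.

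The difference in share between adjacent SNVs of the tract was 4.39 percentage points at the median for 81 pairs up to 100 bases apart, 4.90 at over 100 and up to 2000 bases, and 9.02 for 197 pairs further apart. In the rest of chromosome 8 the same medians were 12.3 (52 pairs), 12.2 (20) and 16.9 (39), so pairs up to 100 bases apart were no closer in share there than pairs up to 2000 bases apart. The 12 clusters outside the tract spanned 38.1 points from their lowest to their highest share at the median, and the 36 of the tract 14.7. Off chromosome 8 the medians between adjacent SNVs were 8.10 (930 pairs), 11.6 (380) and 16.3 (1225). Pairs up to 100 bases apart can share reads. Depth was not matched between near and far pairs, although the tract's median share differed between depth classes. The tract medians were the smaller ones at every distance. Most tract shares lay between the lowest listed share and 35%, a narrower range than off chromosome 8.

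Measures that the rule did not name, in this paragraph and the next, were set beside each other as well. The quality and genotype in the rule were called from the same reads, so these measures are not independent of it. The median quality was 63.5 in the tract, 162 in the rest of chromosome 8 and 116 off chromosome 8. The alternate base was seen on both strands in 315 of the 380 tract SNVs (82.9%, interval 78.7% to 86.5%), in 89 of the 112 others of chromosome 8 (79.5%, 70.8% to 86.5%) and in 1929 of 2547 off chromosome 8 (75.7%, 74.0% to 77.4%). Where each strand had at least 5 reads, the tract's median share was 19.4% on forward and 18.8% on reverse reads over 317 SNVs. Pearson's correlation between the strands was 0.22 over these SNVs, which share a library and often reads. It was 0.39 in the rest of chromosome 8 (86 SNVs) and 0.34 off chromosome 8 (1854). The tract's median share was thus the same on both strands to within 1 percentage point, although its correlation was the lowest. Single SNVs of the tract differed by 12.1 points at the median, against 16.0 in the rest of chromosome 8 and 18.2 off chromosome 8.

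The deposited records also carry p-values for bias between reference and alternate reads, in the order strand, base quality, mapping quality and distance to the read end by the convention of SAMtools. A p under 0.05 for distance to the read end was listed for 52 of the 380 tract SNVs (13.7%), 36 of the 112 others of chromosome 8 (32.1%) and 824 of 2547 off chromosome 8 (32.4%). For strand it was listed for 11.1%, 17.9% and 17.7%, and for base quality for 13.9%, 23.2% and 20.3%. For mapping quality it was listed for 1.58%, 5.36% and 3.22%. A mapping quality of 50, the highest in the file, was listed for 361 of the 380 tract SNVs (95%), 95 of the 112 others (84.8%) and 2181 of the 2547 (85.6%). Such p-values depend on the number of alternate reads, which was 6 per SNV at the median in the tract, 12 in the rest of chromosome 8 and 9 off chromosome 8, so the shares of small p-values cannot be compared directly between these sets.

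Transitions, changes between A and G or between C and T, made up 239 of the 380 tract SNVs (62.9%, interval 57.8% to 67.8%), 62 of the 112 others of chromosome 8 (55.4%, 45.7% to 64.8%) and 1456 of the 2547 off chromosome 8 (57.2%, 55.2% to 59.1%). With both strands read together, A-to-G changes were the most frequent kind in the tract, with 129 SNVs (33.9%), followed by C-to-T changes with 110 (28.9%). Off chromosome 8 these were 29.3% and 27.9% of 2544 SNVs with a single A, C, G or T on each side. The intervals for A-to-G changes, 29.2% to 39.0% in the tract and 27.6% to 31.1% off chromosome 8, overlapped, as did those for transitions.

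Homozygous SNVs inside the tract were examined for reads of the reference base. Up to position 64000000 the span held 55 of them, and 14 (25.5%, interval 14.7% to 39.0%) had at least 1 reference read. Past that position, 1 of 40 had one (2.5%, 0.063% to 13.2%). On the rest of chromosome 8 it was 8 of 120 (6.67%, 2.92% to 12.7%), and off chromosome 8 it was 517 of 7141 (7.24%, 6.65% to 7.87%). Median depths were 32, 44, 21.5 and 28 reads in the same order, and depth was not matched between these sets. The 14 were not all separate places, since T56387824G, G56387875A, G56387881A and G56388423A lay close together. Of the 14, 9 had alternate shares of 83.3% to 98.1%. The other 5 were listed as homozygous although the alternate base was in the minority, and their mapping quality was 12 to 22. C63315058T was the deepest of these, with 67 alternate among 868 reads (7.72%) and a mapping quality of 12. T57899584C had 42 among 166 (25.3%) and a mapping quality of 20. Off chromosome 8, 16 of 7141 records listed as homozygous (0.224%) had an alternate share under 50%.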

How the data were processed

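Leaf RNA was sequenced for 1 library of M82, 3 of IL2-6 and 3 of IL3-2, grouped by their titles. In the deposited M82 file, each variant has the quality score of the authors' caller, on the Phred scale, with read depths per allele and strand and a genotype. Its chromosome names carry SL2.50. The authors' deposited gene counts of the introgression lines are raw, with totals of 18479252 to 21320790 in IL2-6 and 28828109 to 40146308 in IL3-2. Per the submitters' processing notes, the tools were SAMtools 1.9, TopHat2, Trimmomatic, CASAVA 1.8.2, edgeR and HTSeq, with no role stated. Which tool called the variants, and how, is not given in the sources used here.

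Of 3728 SNV records on chromosome 8, 2112 had a genotype other than 1/1. Of these, 1373 had a quality under 30 and 247 more a depth under 10 reads, which left 492. The alternate share was the alternate reads among the reference and alternate reads the record lists per strand (DP4), which were fewer than 10 for 4 of the 492. Tracts, clusters and intervals were computed in Python 3.11.15 with scipy 1.17.1, and the code was tested on simulated positions and reads. SNVs were named by rule: the 10 deepest, the 3 highest and 3 lowest shares among the 134 SNVs of at least 50 reads, the ends of each tract, and the deepest SNV of the 5 clusters with the most SNVs. SNVs with a genotype of 1/1, bins and other clusters were chosen after their values were seen. The members and definitions were chosen with earlier results of these data known. No annotation of SL2.50 was used, so no SNV was placed in a gene, the planned test of genes that hold SNVs was not run, and the number of expressed genes rests on other plants than M82.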

Additional observations from a re-analysis of the deposited data

How the results depend on the processing

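Over 9 results, 78 alternative values were computed. Of these, 57 stayed within the 95% interval of the reported value or, for counts and densities, within 1.5 times of it. Keeping only the genotype 0/1 left the same 492 SNVs, so its unchanged values among the 57 were fixed in advance. A quality minimum of 100 moved most: 181 SNVs were left, 13.1 per 100 expressed genes, the heterozygous share of SNVs was 46.8%, the median alternate share 45.9%, the largest tract held 18.2% of the SNVs because the long tract broke up, and adjacent SNVs up to 100 bases apart differed by 9.30 points in share. A quality minimum of 10, chosen after seeing the data, gave 777 SNVs, 56.1 per 100 expressed genes, a heterozygous share of 78.2%, a median alternate share of 19.4%, a median depth of 24 reads and 81.1% of SNVs in the largest tract. A depth minimum of 20 gave a median depth of 39.5 and a median share of 19.5%. Requiring both strands (for homozygous SNVs, alternate reads on both) gave a heterozygous share of 65.1%, a median share of 22.3% and a median depth of 35. Keeping 1 SNV per 100 bases gave a median share of 22.4% and 82.6% of SNVs in the largest tract. A tract gap of 250 kb put 68.7% in the largest tract, and a minimum of 5 SNVs gave 7 tracts in place of 4. The density, the neighbour differences under all alternatives and expression from 5 CPM were likewise added after seeing the data. Chromosome 8 kept the highest density under each of the 5 conditions compared across chromosomes (quality of 100 or 10, depth of 20, mapping quality of 40, both strands), and the lowest median share under all but the quality of 100. Depth limits what can be seen, since at 10 to 19 reads no share under 15.8% was listed in the tract. No paired analysis was possible because the results come from 1 library and from no test, and for the same reason no replicate could be left out.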
